A study of Sus scrofa with 3 samples.

Results

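Glutathione transferases and the enzyme that starts glutathione synthesis were followed in the visceral adipose tissue of male miniature pigs. The genes were chosen by name for their function, and 9 of the 10 named genes were found among the 22826 mRNA genes of the deposited values. These are the cytosolic transferases GSTA4, GSTO1, GSTP1 and GSTZ1, the organelle transferase GSTK1, the microsomal transferases MGST2 and MGST3, and GCLC and GCLM of glutathione synthesis. MGST1 was not analysed here. All 9 genes reached at least 1 UQRPKM in every library, so no filter on low values removed any of them.

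RNA sequencing compared intact males (IM), castrated males (CM) and castrated males given testosterone (CMT), all Chinese Wuzhishan miniature pigs obtained at 6 to 7 months of age and kept for 12 weeks on an HFC diet, which is rich in fat and cholesterol. IM pigs underwent skin incisions only, and CMT pigs were injected every week with testosterone propionate at 10 mg/kg. The tissue was retroperitoneal fat. RNA of the pigs in a group, 4 to 6 of them by the sample labels and 4 by the methods text, was mixed before sequencing, so each group is 1 library without replicates. No result below is therefore a test of castration or testosterone, and every interval covers counting error only.

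Glutathione is a small peptide that neutralises peroxides and reactive lipid products. Its synthesis starts with glutamate-cysteine ligase, made of the catalytic subunit GCLC and the modifier subunit GCLM, and is completed by glutathione synthetase (GSS). Transferases join glutathione to reactive compounds, and in fat a well-known substrate is the aldehyde 4-hydroxynonenal, which arises when membrane lipids are oxidised. The membrane-bound transferases belong to another protein family, whose relatives make leukotrienes and prostaglandins.

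Levels are given in UQRPKM, which counts reads per kilobase of gene relative to the library's upper-quartile gene. They are per length, so they can be compared between genes as far as the authors' gene lengths are right, which was not tested. The depositors' values were whole multiples of 1 read, and the reads recovered from them on mRNA genes numbered 14844063 for IM, 13582288 for CM and 13449107 for CMT. A gene was called where its levels differed by 1.5-fold or more and reached 1 UQRPKM in each library compared. Ratios, written CM/IM, CMT/CM and CMT/IM for the group named first over the second, are on the log2 scale without a pseudocount, each with an exact 95% counting interval from its reads.

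The libraries differed in the levels of markers of other cell types, and the part of these differences in the values of the 9 genes was not tested. Of 13 liver markers found, 12 were highest in CM, and without APOA1 their summed level was 31.0 UQRPKM in IM, against 8728 in CM and 38.6 in CMT. In IM, APOA2, APOC3, FGB, FGG and SERPINA1 were at 0. The skeletal muscle markers summed to 94.6, 79.8 and 6349 UQRPKM in IM, CM and CMT, and CKM and MB were at 0 in all 3 libraries. The adipocyte markers, among them PLIN1, PLIN4 and ADIPOQ, marked the tissue as fat in every library, but their sum was lower in CMT (111623 UQRPKM) than in IM (141619) and CM (132992). Macrophage markers, with most reads on C1QC, C1QA and CSF1R, summed to between 6987 and 8570 UQRPKM and were highest in IM. C1QC, C1QA and CSF1R had 3222, 2833 and 285 UQRPKM in IM, against 2618, 2100 and 246 in CM. Of the 13 macrophage markers, 6 were nevertheless highest in CM. Over all mRNA genes, 18.8% were called in CM/IM and 19.5% in CMT/CM. Of the 12 macrophage markers tested, 3 were called higher in CM/IM and lower in CMT/CM. These were LOC100520753 (CD68) with 17.2, 42.9 and 22.2 UQRPKM in IM, CM and CMT, EMR1 with 45.6, 93.6 and 30.6, and MARCO with 16.8, 37.9 and 10.7, named here after their values were seen. Lymphocyte markers, led by NKG7, CD8A and CD2, summed to between 656 and 779, endothelial markers, led by PECAM1, VWF and KDR, to between 6141 and 6977, and stromal markers, led by COL3A1, COL1A2 and DCN, to between 68908 and 72817. Mesothelial markers, led by UPK3B, LOC100515339 (KRT19) and WT1, summed to 102 UQRPKM in IM, against 165 in CM and 382 in CMT. The adrenal cortex markers, led by HSD3B1, STAR and MC2R, summed to 366 UQRPKM in IM, against 620 in CM and 399 in CMT, while CYP11A1, CYP17A1 and NR5A1 of that list were at 0 in every library. CD163 of macrophages, CIDEA of adipocytes, DLK1 of stromal cells and LRRN4 of mesothelium were also at 0 in every library. The kidney markers held 13 reads in all, 12 of them on LOC100521743 (CUBN) and 1 on LRP2. Fewer cells of a type and less RNA per cell cannot be told apart in such bulk samples.

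The 9 genes spanned a wide range of levels that was much larger than any difference between the libraries. MGST3 was the highest in every library, followed by GSTP1, GSTK1 and GSTZ1, and the counting intervals of these 4 neighbours did not overlap in any library. MGST3 stood at 174 times the median mRNA gene in IM, and GSTP1 at 93.0 times. GCLC was the lowest everywhere, at 0.578 times the median in IM, and its interval overlapped that of GCLM in each library. GSTA4, GSTO1 and MGST2 lay between these extremes, and their order changed from library to library.

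**Figure D1:**
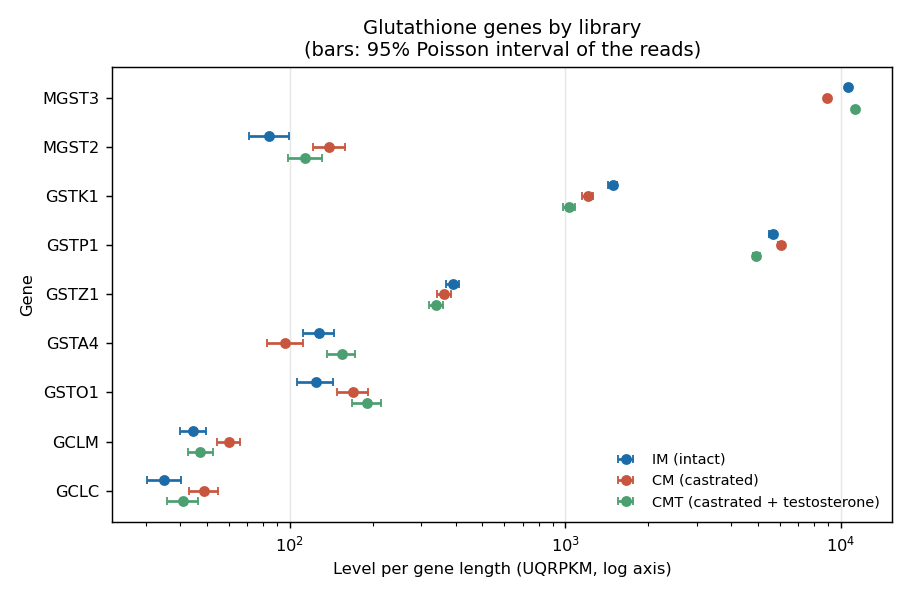
Level of each of the 9 genes (UQRPKM, log axis) in the IM, CM and CMT libraries, with 1 point per pooled library and bars for the 95% Poisson interval of its reads. MGST3 and GSTP1 lie at or above 4940 UQRPKM and GCLC and GCLM below 61 in all libraries, and the points of 1 gene lie close together.

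Together MGST3 and GSTP1 made up 88.0% of the summed level of the 7 transferases in IM, against 88.4% in CM and 89.9% in CMT. The sum itself was 18441 UQRPKM in IM, against 16935 in CM and 18025 in CMT. Without this pair, the other 5 transferases summed to 2210, 1972 and 1829 UQRPKM.

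MGST3, a microsomal enzyme with glutathione peroxidase activity, had 10583 UQRPKM in IM, against 8891 in CM and 11256 in CMT (14412, 11540 and 15021 reads). CM was the lowest library and CMT the highest. The log2 ratio was -0.25 (95% interval -0.29 to -0.22) in CM/IM and 0.34 (0.31 to 0.38) in CMT/CM. In CMT/IM it was 0.09 (0.06 to 0.12). All of these intervals lie apart from 0, and none reaches a 1.5-fold difference. Scaling by the median ratio of genes moved the CMT/IM value to 0.17, outside its counting interval, and the CM/IM value to -0.19.

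MGST2, a relative that can form leukotriene C4, was instead highest in CM, at a far lower level. It had 84.3 UQRPKM in IM, against 139 in CM and 114 in CMT (142, 223 and 188 reads). IM was the lowest library and CM the highest, and the counting interval of CMT overlapped those of both others. MGST2 was 1.65-fold higher in CM than in IM (log2 ratio 0.72, 0.41 to 1.03), the only one of the 9 genes called in that comparison. Its log2 ratio was -0.29 in CMT/CM, with an interval from -0.57 to 0.00 that just included 0, and 0.43 (0.11 to 0.76) in CMT/IM.

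GSTA4 acts on the lipid aldehyde 4-hydroxynonenal. It is the transferase that the study also measured by qRT-PCR, which was not analysed here. The primer pair that the study lists for it is shown, 5′ to 3′. Which GSTA4 transcripts the pair reads was not tested, since no transcript sequences were at hand. Each primer has 20 bases, of which 10 are G or C.
GSTA4 forward: gattgacgggatgaagttgg
GSTA4 reverse: ctggtttgaggaaaggatgc

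GSTA4 had 128 UQRPKM in IM, against 96.2 in CM and 154 in CMT (241, 173 and 285 reads). CM was the lowest library, its counting interval lay below both others, and the intervals of IM and CMT overlapped. GSTA4 was 1.60-fold higher in CMT than in CM (log2 ratio 0.68, 0.40 to 0.96) and was the only one of the 9 genes called there. In CM/IM its log2 ratio was -0.41 (-0.70 to -0.12), under the 1.5-fold limit. The ratio in CMT/IM was 0.27 (0.02 to 0.52).

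GSTO1, which reduces dehydroascorbate and has thiol transferase activity, was higher in both libraries of castrated pigs. It had 124 UQRPKM in IM, against 169 in CM and 191 in CMT (178, 231 and 268 reads). IM was the lowest library, and the counting intervals of CM and CMT overlapped. The log2 ratio was 0.45 (0.16 to 0.74) in CM/IM and 0.62 (0.34 to 0.90) in CMT/IM, the latter a 1.54-fold difference and the only call among the 9 genes in that comparison. Between CMT and CM the ratio of 0.17 had an interval from -0.09 to 0.43, so no difference was detectable between them at this depth.

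The order of these low transferases can be read within each library, where scaling plays no part. Per length, MGST2 stood at 0.660 times GSTA4 in IM (95% interval 0.532 to 0.815), at 1.44 times in CM (1.18 to 1.77) and at 0.738 times in CMT (0.611 to 0.891). MGST2 was therefore below GSTA4 in IM and CMT and above it in CM. GSTO1 stood at 0.972 times GSTA4 in IM (0.796 to 1.18), 1.76 times in CM (1.44 to 2.15) and 1.24 times in CMT (1.04 to 1.47). The same reading for the most abundant pair gave MGST3 at 1.87 times GSTP1 in IM, 1.46 times in CM and 2.28 times in CMT, with intervals that did not overlap.

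GSTP1, the main cytosolic transferase in many tissues outside the liver, had 5648 UQRPKM in IM, against 6072 in CM and 4940 in CMT (5605, 5742 and 4803 reads). CM was the highest library and CMT the lowest. The log2 ratio was 0.10 (0.05 to 0.16) in CM/IM, -0.30 (-0.35 to -0.24) in CMT/CM and -0.19 (-0.25 to -0.14) in CMT/IM. These differences are small in size, though larger than counting error. Scaling by the median ratio of genes moved the CM/IM value to 0.17 and the CMT/IM value to -0.11, both outside their counting intervals.

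A separate gene, LOC100525731, carries an annotation to human GSTP1 in the study's gene lists. It had only 30.9 UQRPKM in IM, against 9.59 in CM and 11.5 in CMT (44, 13 and 16 reads). It was lower in both libraries of castrated pigs, with a log2 ratio of -1.69 (-2.71 to -0.77) in CM/IM and -1.43 (-2.35 to -0.58) in CMT/IM, and so did not follow GSTP1. How reads shared by similar genes were counted is not given in the sources used here, so the split of reads between GSTP1 and LOC100525731 is uncertain. In IM, GSTP1 stood at 183 times LOC100525731 (95% interval 136 to 252).

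GSTK1 and GSTZ1 were both highest in IM and lowest in CMT. GSTK1, a transferase of mitochondria and peroxisomes, had 1483 UQRPKM in IM, against 1204 in CM and 1031 in CMT (2347, 1816 and 1598 reads). The log2 ratio of GSTK1 was -0.30 (-0.39 to -0.21) in CM/IM, -0.22 (-0.32 to -0.13) in CMT/CM and -0.53 (-0.62 to -0.43) in CMT/IM, the last just under the limit for a call. GSTZ1, which breaks down maleylacetoacetate in the tyrosine pathway, had 391 UQRPKM in IM, against 363 in CM and 339 in CMT (1325, 1174 and 1128 reads). It varied least of the 9 genes, with its highest library 1.15 times its lowest. Only its ratio in CMT/IM, -0.20 (-0.32 to -0.09), had an interval without 0.

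Both subunits of glutamate-cysteine ligase were highest in CM. GCLC had 35.1 UQRPKM in IM, against 48.7 in CM and 40.9 in CMT (204, 270 and 233 reads). GCLM had 44.6, 60.2 and 47.4 UQRPKM, from 336, 432 and 350 reads. For each subunit the counting intervals of IM and CMT overlapped, and that of CM lay above that of IM. The log2 ratio in CM/IM was 0.47 (0.21 to 0.74) for GCLC and 0.43 (0.22 to 0.64) for GCLM, or 1.39-fold and 1.35-fold. In CMT/CM it was -0.25 (-0.51 to 0.01) for GCLC and -0.34 (-0.55 to -0.14) for GCLM. In CMT/IM the intervals of both subunits included 0.

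The balance of the subunits hardly moved between the libraries. Per length, GCLC stood at 0.786 times GCLM in IM (95% interval 0.657 to 0.938), 0.809 times in CM (0.693 to 0.944) and 0.862 times in CMT (0.727 to 1.02). These intervals overlap throughout, which leaves room for a difference within their width.

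In each comparison 1 of the 9 genes was called, MGST2 in CM/IM, GSTA4 in CMT/CM and GSTO1 in CMT/IM, each of them higher in the group named first. That is 11.1% of the 9 genes. Of all mRNA genes that reached the 1 UQRPKM minimum, 18.8% were called in CM/IM, 8.38% higher and 10.4% lower in CM. In CMT/CM 19.5% were called, 9.53% higher and 9.97% lower in CMT, and in CMT/IM 20.7% were called, 8.81% higher and 11.9% lower in CMT. The balance of higher and lower calls depended on scaling, since scaling by the median ratio of genes turned 1246 higher and 1690 lower calls in CMT/IM into 1507 and 1328, and the majority changed side in the other 2 comparisons too. Genes with few reads pass 1.5-fold more easily, and among genes with read numbers in the range of these 9 the called shares were 5.28%, 5.92% and 7.92%. With 9 genes, 1 call more or less moves the share by 11.1 percentage points, so neither background sets them apart. The median log2 ratio of the 9 genes was 0.10 in CM/IM, -0.22 in CMT/CM and 0.09 in CMT/IM, beside -0.06, -0.02 and -0.08 over all tested genes. Of these comparisons each pair shares a library, so they are not independent of each other.

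More of the genes differed by less than 1.5-fold but beyond counting error. The counting interval excluded 0 for 8 of 9 genes in CM/IM (5 higher, 3 lower in CM), for 5 in CMT/CM (2 higher, 3 lower) and for 7 in CMT/IM (4 higher, 3 lower). Over all tested mRNA genes the interval excluded 0 for 42.3%, 38.4% and 44.5%. The glutathione genes have many reads, and among the genes of the same read range these shares were 56.3%, 49.5% and 58.9%. An interval without 0 tells only that the pair of libraries differed, since the spread between pigs of a group was not measured.

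**Figure D2:**
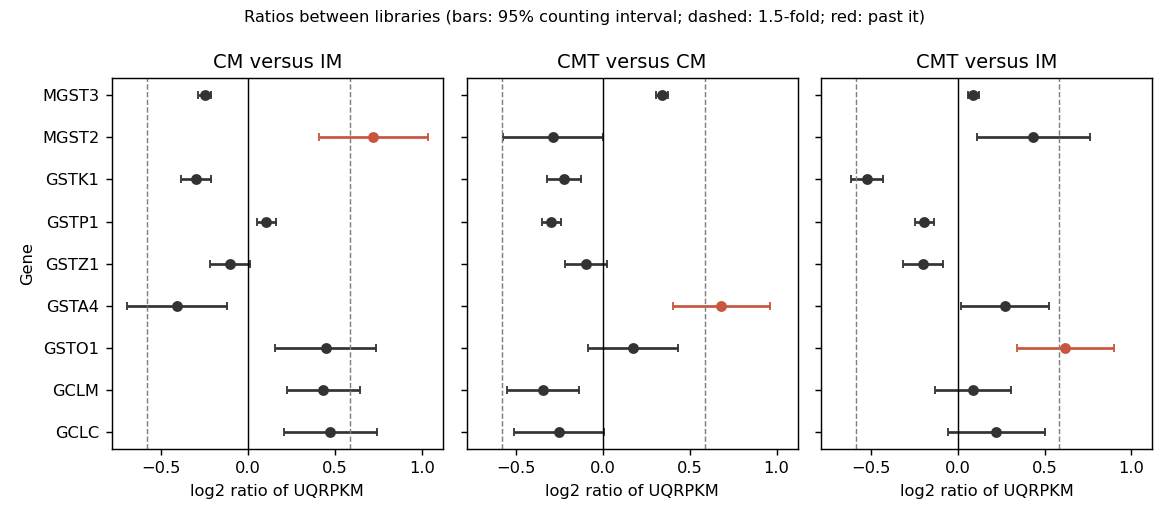
Log2 ratio of UQRPKM for each of the 9 genes in CM/IM, CMT/CM and CMT/IM, with bars for the 95% counting interval, dashed lines at 1.5-fold and red for a gene past them. In each comparison 1 gene is red, MGST2, GSTA4 and GSTO1 in turn, and the ratios of all genes lie between -0.53 and 0.72.

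By library, 4 of the genes (GSTP1, MGST2, GCLC and GCLM) were highest in CM, 3 (GSTA4, GSTO1 and MGST3) in CMT and 2 (GSTK1 and GSTZ1) in IM. No single direction therefore described the group. Among the 8541 mRNA genes with at least 1 UQRPKM and 100 reads in every library, the highest library was a median of 1.24 times the lowest. For the 9 genes that median was 1.39, and the values ran from 1.15 for GSTZ1 to 1.65 for MGST2. MGST2 varied more than 93.2% of those genes, GSTA4 more than 91.8% and GSTO1 more than 88.6%. These 3 had the fewest reads of the 9 genes, and counting error raises this measure where reads are few. The 8541 genes were not matched to them for reads.

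The liver-type transferase GSTA1 gave the sharpest difference in the wider family. It had 0 reads in IM, against 176 in CM and 1 in CMT, or 118 UQRPKM in CM. Against a floor of 3 reads in IM it was at least 61.6-fold higher in CM, and in CMT/CM its log2 ratio was -7.50 (-12.81 to -5.00). ALB, the main protein of blood plasma made in the liver, had 10, 10612 and 15 reads in IM, CM and CMT, and TF, which carries iron in plasma, had 19, 2696 and 31. GSTA1 and these liver markers stood high in the same library, whereas APOA1 had 2539, 2339 and 1714 UQRPKM. MGST2, GCLC, GCLM and GSTP1 were highest in CM as well, at 1.65, 1.39, 1.35 and 1.07 times their levels in IM. The part of liver RNA in their values was not tested. GSTA4 was called in CMT/CM, a pair in which the liver markers without APOA1 summed to 8728 UQRPKM in CM and 38.6 in CMT and the muscle markers to 79.8 and 6349. In that pair PLIN1, PLIN4 and ADIPOQ of adipocytes had log2 ratios of -0.57, -1.03 and -0.12. PNPLA2 of the same list, named after its values were seen, was slightly higher in CMT at 0.07. The median of the 7 tested adipocyte markers was -0.24. GSTO1 was called in CMT/IM, where the liver markers other than APOA1 were low in both libraries. The muscle markers, however, were high in CMT, with ACTA1 at 49.8 UQRPKM in IM and 3589 in CMT, MYH7 at 2.46 and 117, and MYLPF at 13.3 and 645. The mesothelial markers summed to 102, 165 and 382 UQRPKM in IM, CM and CMT. GSTO1 had the same order, though its levels in CM and CMT were not told apart. Of the 5 mesothelial markers tested, 4 were called higher and 1 lower in CMT/IM. PLIN1, PLIN4 and ADIPOQ of adipocytes had log2 ratios of -0.56, -0.96 and -0.23 in CMT/IM. PPARG of that list, named after its values were seen, was higher in CMT there at 0.23 (0.14 to 0.32). The median of the 7 tested adipocyte markers in CMT/IM was -0.39. The part of such differences in the ratios of GSTA4, GSTO1, GSTK1 and MGST3 was not tested.

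**Figure D3:**
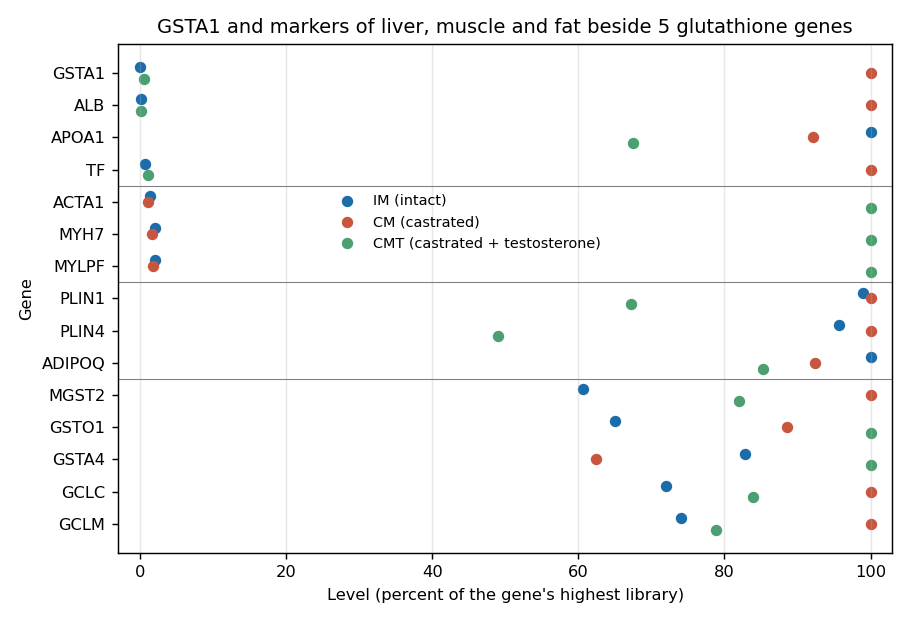
Level of GSTA1, of 3 liver markers (ALB, APOA1, TF), 3 skeletal muscle markers (ACTA1, MYH7, MYLPF), 3 adipocyte markers (PLIN1, PLIN4, ADIPOQ) and 5 glutathione genes in each library, as a percent of the gene's highest library. GSTA1, ALB and TF lie near 0 in IM and CMT, the muscle markers lie near 0 in IM and CM, and the 5 glutathione genes lie above 60% in all libraries.

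The rest of glutathione metabolism was followed in 7 lists that held 91 further genes, of which 78 were found and 9 read 0 throughout. A listing at 0 can be a failed estimate and was not read as absence. Of the 62 genes that reached the minimum, 11 were called in CM/IM (3 higher, 8 lower in CM), 9 in CMT/CM (3 higher, 6 lower) and 15 in CMT/IM (6 higher, 9 lower). These are 17.7%, 14.5% and 24.2%, beside 18.8%, 19.5% and 20.7% over all genes. That background was not matched to the lists for reads, and genes with few reads pass 1.5-fold more easily. The median log2 ratios of the lists together were -0.06, -0.04 and -0.16.

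**Figure D4:**
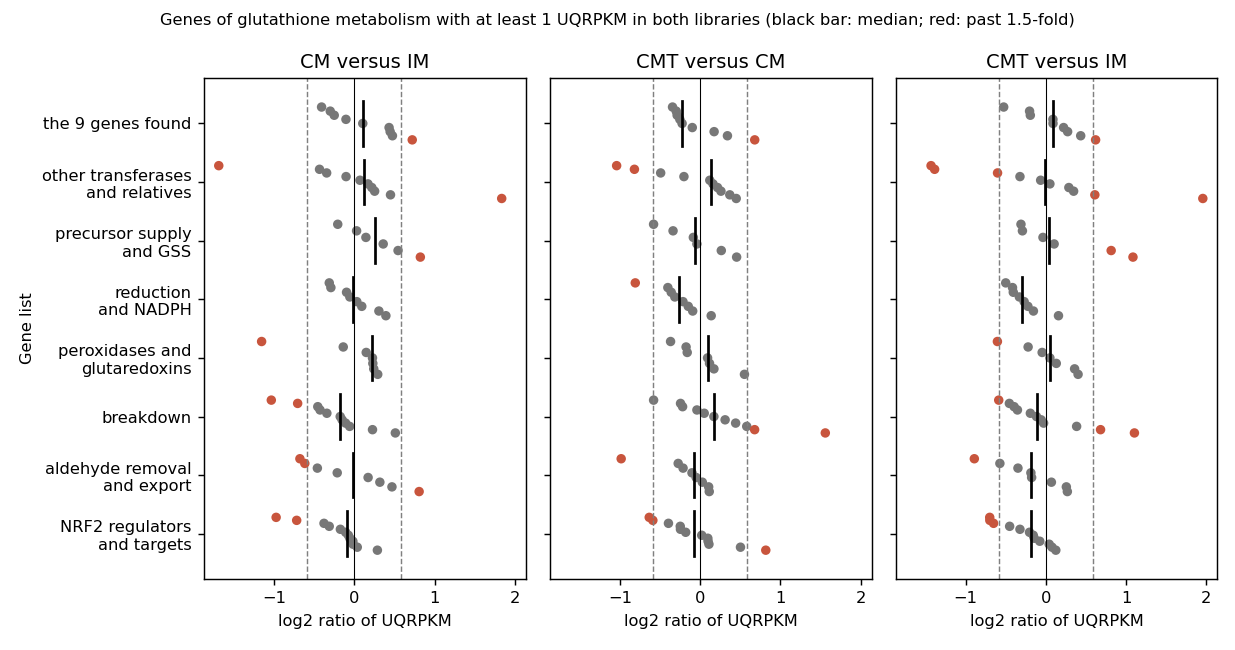
Log2 ratio of UQRPKM in each comparison for the 9 genes and for the tested genes of 7 further lists of glutathione metabolism, with 1 point per gene, a black bar at the median of each list, dashed lines at 1.5-fold and red for a gene past them. Points past 1.5-fold lie on both sides of 0, and the medians lie between -0.30 and 0.25.

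Among the other transferases and relatives, 10 genes were tested, of which 2 were called in CM/IM (1 higher, 1 lower), 2 in CMT/CM (both lower) and 5 in CMT/IM (2 higher, 3 lower), where 18.8%, 19.5% and 20.7% of all genes were called. LOC100514231, matched by its gene number to GSTM3 of the mu class, had 655 UQRPKM in IM, against 761 in CM and 432 in CMT, with log2 ratios of 0.22, -0.82 and -0.60 in CM/IM, CMT/CM and CMT/IM. Its level lay between those of GSTZ1 and GSTK1 in every library, and it was lowest in CMT. HPGDS, the glutathione-dependent prostaglandin D synthase, had 5, 17 and 19 reads in IM, CM and CMT, and its ratio of 1.83 in CM/IM had a wide interval from 0.34 to 3.63. PTGES, the prostaglandin E synthase of the microsomal family, had 138, 189 and 211 UQRPKM and was called in CMT/IM with a ratio of 0.61 (0.37 to 0.85). Its order was that of GSTO1, but the CMT/CM intervals of both genes included 0, from -0.06 to 0.38 for PTGES. GSTO2 rested on 8, 6 and 3 reads, and all its intervals included 0. The leukotriene genes ALOX5AP and LTC4S, and PTGES2, were not called in any comparison.

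Of 6 tested genes of precursor supply and later synthesis, 1 was called in CM/IM, 0 in CMT/CM and 2 in CMT/IM, each of them higher, too few to set beside the shares over all genes. GSS, which completes glutathione, had 169, 186 and 181 UQRPKM in IM, CM and CMT, with all ratios at or below 0.14 in size. CTH, which releases cysteine from cystathionine, had 38, 64 and 79 reads and was called higher in CM/IM (log2 ratio 0.82, 0.22 to 1.44) and in CMT/IM (1.09, 0.51 to 1.68). The glutamate carrier SLC1A1 was called in CMT/IM, but its interval from -0.07 to 1.74 included 0. SLC1A5 and SLC3A2 were not called, and SLC7A11, the cystine carrier, was listed at 0 in all libraries.

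Reduction of glutathione uses NADPH, and the enzymes TALDO1, TKT and PGD of the pathway that supplies it were lowest in CMT. TALDO1 of this pentose phosphate pathway had 8816 UQRPKM in IM, against 11570 in CM and 6610 in CMT and was called in CMT/CM with a log2 ratio of -0.81 (-0.87 to -0.75). TKT and PGD had ratios of -0.36 and -0.40 in that comparison and were not called, nor was ME1 at -0.15. The median of the list in CMT/CM was -0.26, beside -0.02 for all genes and -0.24 for the 7 tested adipocyte markers, and the part of the adipocyte difference in these values was not tested.

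Of 7 tested peroxidases and glutaredoxins, 1 was called in CM/IM, 0 in CMT/CM and 1 in CMT/IM, too few to set beside the shares over all genes. The gene called was GPX3, the peroxidase secreted into plasma. It had 26408 UQRPKM in IM, against 11852 in CM and 17380 in CMT, with a log2 ratio of -1.16 (-1.18 to -1.14) in CM/IM and -0.60 (-0.62 to -0.59) in CMT/IM. Its CMT/CM ratio of 0.55 (0.53 to 0.57) was just under the limit for a call. GPX1, GPX4, PRDX6 and GLRX3 were not called in any comparison. GPX1 and GPX4, peroxidases inside the cell, were higher in CM than in IM, with ratios of 0.23 and 0.29, the opposite direction to GPX3. GPX6, named after its values were seen, had 0, 17 and 0 reads in IM, CM and CMT. It was below the minimum in IM and CMT and so could not be called.

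Of 11 tested genes that break glutathione down, 2 were called in CM/IM (both lower), 2 in CMT/CM (both higher) and 3 in CMT/IM (2 higher, 1 lower). Over all genes, not matched to these for reads, 18.8%, 19.5% and 20.7% were called. GGT5, a cell surface enzyme that cleaves glutathione and leukotriene C4, had 184 UQRPKM in IM, against 90.0 in CM and 135 in CMT, with a log2 ratio of -1.04 (-1.22 to -0.85) in CM/IM. Its CMT/CM ratio of 0.58 (0.38 to 0.78) was just under the limit for a call. ANPEP, a peptidase of the cell surface, had 1251, 767 and 1227 UQRPKM and was called lower in CM/IM (-0.71) and higher in CMT/CM (0.68). Both were lowest in CM, as were GSTA4 and MGST3, but GGT5 and ANPEP were highest in IM and GSTA4 and MGST3 in CMT. CHAC1, which degrades glutathione inside the cell, had 37.7, 27.5 and 80.9 UQRPKM and was 2.95-fold higher in CMT than in CM (log2 ratio 1.56, 1.15 to 1.98). CNDP2 was called lower in CMT/IM (-0.59), and CHAC2 was called higher there with an interval from -0.35 to 1.76. OPLAH, LAP3, DPEP2 and LOC100519401 (GGT7) were not called.

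In the list of aldehyde removal and export, ABCC1, a pump for glutathione conjugates, had 339.5 UQRPKM in IM, against 221 in CM and 183 in CMT. It was called lower in CM/IM (log2 ratio -0.62, -0.71 to -0.52) and in CMT/IM (-0.89, -0.99 to -0.79). ABCC3 had 34.5, 21.5 and 23.2 UQRPKM and was called lower in CM/IM (-0.68), so both pumps were highest in IM. The pump ABCC2, named after its values were seen, went the other way, with 6, 43 and 8 reads in IM, CM and CMT. It was below 1 UQRPKM in IM and CMT and so could not be called. HAGHL, called in CM/IM and CMT/CM, had 15, 25 and 13 reads, and its intervals included 0. ESD, ADH5 and ABCC5 were not called.

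NRF2 is the transcription factor that responds to electrophiles and is known to drive GCLC, GCLM and several transferases. Its inhibitor KEAP1 had 99.1 UQRPKM in IM, against 91.9 in CM and 61.1 in CMT, with log2 ratios of -0.59 (-0.82 to -0.36) in CMT/CM and -0.70 (-0.92 to -0.48) in CMT/IM. The partner MAFK had 79.7, 78.7 and 50.7 UQRPKM and was called lower in the same comparisons, whereas MAFF, with 173, 105 and 107 UQRPKM, was called lower in CM and CMT against IM. NFE2L2, the gene of NRF2 itself and named here after its values were seen, had 404, 493 and 416 UQRPKM, with a ratio of 0.29 in CM/IM. NQO1 and TXNRD1, known targets also named after their values were seen, had ratios of -0.06 and 0.04 in that comparison. The median of the 12 tested genes of the list was -0.09 there. The list mixes regulators such as KEAP1, MAFF and MAFK with targets, so this median does not describe the targets. The target LOC100517736 (SRXN1) had 33, 16 and 29 reads, with a ratio of -0.97 (-1.94 to -0.07) in CM/IM. It was called higher in CMT/CM (0.82), with an interval from -0.11 to 1.80 that included 0. FTH1, FTL, SQSTM1 and TXN, further genes of the list, were not called, and HMOX1 was listed at 0 in all libraries. The part of NRF2 in the values of GCLC, GCLM and the transferases was not tested.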

How the data were processed

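The authors filtered Ion Proton reads, mapped them to Sscrofa 10.2 with MapSplice and deposited 1 value per gene and library as UQRPKM, an RPKM taken relative to each library's upper quartile. The counting tool and gene annotation are not given in the sources used here. No coordinates are printed, since the gene table at hand describes another build and served for names only, with 7 pathway genes matched by gene number.

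Reads were recovered as the smallest whole numbers that gave the deposited values in all 3 libraries, with gene lengths up to 120000 bases. Whole reads were found for 100% of 20838 genes above 0, and the recovered reads returned the values to within a relative error of 7.65e-09. A common factor of a gene's reads can be missed, which widens its interval. The recovery was tested on simulated data. Levels carry exact Poisson intervals, and ratios carry exact Clopper-Pearson intervals of the share of reads, both at 95%. Reads are not independent molecules, so intervals and the floor of 3 reads cover counting error only. The reads recovered over all genes numbered 15106608 to 16611931 per library, which counts reads assigned to genes and not all reads sequenced.

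With 1 library per group there is no test between conditions. The call at 1.5-fold and at least 1 UQRPKM in both libraries takes the study's limits without its test. Alternatives were a limit of 2-fold, an exact binomial test on reads with Benjamini-Hochberg adjustment under 0.05 over all mRNA genes, other minimum values, other scalings and a pseudocount of 1. Named are the 9 genes, every listed pathway gene called in a comparison with up to 4 others per list that had the most reads, and 3 markers per cell type with the most reads. Some genes that this rule would name are not reported here. The genes and lists were chosen with earlier results of these data known. Python 3.11.15, NumPy 2.4.6, pandas 2.3.3, SciPy 1.17.1 and Matplotlib 3.10.9 were used.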

Additional observations from a re-analysis of the deposited data

How the results depend on the processing

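Each group is 1 pooled library, so the spread between pigs is unknown, no library could be left out, and no paired analysis was possible because no group has more than 1 library. MGST2, GSTA4 and GSTO1, 1 per comparison, stayed the only calls under both other scalings, a pseudocount of 1 and other minimum values. The exact binomial test on reads, which compares libraries and not conditions, kept them too. Both scalings raised these ratios, and the minimum values lay far below the genes' reads, so these settings could not remove a call. The counting intervals of the called log2 ratios began at 0.41, 0.40 and 0.34, below 1.5-fold, which leaves room for a smaller difference. A limit of 2-fold left 0 of the 9 genes called in each comparison. Over all mRNA genes in CM/IM, CMT/CM and CMT/IM, 2657, 2749 and 2936 calls became 1139, 1225 and 1162 at 2-fold and 1432, 1498 and 1691 with the exact test. A minimum of 10 reads in both libraries gave 1758 calls in CM/IM. Scaling by the median ratio moved ratios by at most 0.08 and turned the split of calls in all 3 comparisons, from 1184 higher and 1473 lower to 1358 and 1273 in CM/IM, from 1343 and 1406 to 1404 and 1350 in CMT/CM, and from 1246 and 1690 to 1507 and 1328 in CMT/IM. Of 81 alternative ratios of the 9 genes, 0 changed sign, and the 5 that left their counting interval belonged to GSTP1 and MGST3, whose intervals are narrow. Genes with few reads, such as HPGDS, GSTO2 and HAGHL, are limited by depth.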
